A study of Rattus norvegicus with 8 samples.

Results

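The part of rat chromosome 18 described here, chr18:28177173-34197879 from its first to its last probe (build rn4), is the broad neighbourhood of Nr3c1, the glucocorticoid receptor gene, and of the clustered protocadherins. Its members were chosen by position alone: all probes of the array that are not controls and lie inside the window were joined into runs wherever the gap to the next probe was at most 500 bp. This gave 1869 probes in 125 runs, of 27740 runs and 375449 probes on the array. Of the 125 runs, 121 held at least 3 tested probes, and the other 4, with 6 probes between them, are counted but were not tested. The files give positions and no gene names, so runs are given by their order in the window and their coordinates, no run was assigned to a gene, and the gene names of the neighbourhood could not be checked against the files.

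DNA methylation was profiled by MeDIP-chip in the prefrontal cortex (PFC) of male Sprague-Dawley rats at postnatal day 62. The 4 control (Ctrl) rats, C180, C182, C184 and C185, were offspring of undisturbed dams, and the 4 prenatally stressed (PNS) rats, C141, C142, C144 and C145, were offspring of dams restrained repeatedly under bright light through the final week of pregnancy. Each litter gave 1 male, the tissue was a whole dissection of several cell types, and the stress acted on the dam, so that exposure of the fetus and later maternal care cannot be told apart. In MeDIP, sheared DNA is pulled down with an antibody against 5-methylcytosine. The bound DNA (Cy5) and the input DNA (Cy3) of the same rat share an array. The level of a probe is here the log2 ratio of bound over input after quantile normalization. The median level over the array's tested runs was -0.18, so 0 is neither the middle of the scale nor an absence of methylation. There were 4 slides, each with a Ctrl array at position 1 and a PNS array at position 2, so position and group cannot be told apart.

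As background, the glucocorticoid receptor is the nuclear receptor through which corticosteroids act on transcription, and the methylation of its promoter region has been a long-standing subject of work on early-life stress. The clustered protocadherins are cell-surface adhesion proteins of neurons. They lie in an alpha, a beta and a gamma cluster, in which many variable first exons follow each other, each with a promoter of its own, and promoter methylation is known to take part in which of them a neuron uses. A stretch of closely spaced promoter runs is therefore the layout that such clusters give on a promoter array. In the RefSeq annotation of the newer build GRCr8, 57 protein-coding entries run from Pcdha4 to Nr3c1, among them 22 of the beta and 15 of the gamma cluster, with the alpha cluster as 1 entry. Between the gamma cluster and Nr3c1 lie, among others, Diaph1, Hdac3 (a histone deacetylase), Pcdh1, Pcdh12, Spry4, Arhgap26 and Fgf1 (a fibroblast growth factor).

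How much DNA the antibody can pull down depends on the CpG sites a fragment carries, and the promoters of the neighbourhood differ widely in that respect. The following are the 250 bases before the listed starts in RefSeq (GRCr8, reading 5′ to 3′ along each gene, Nr3c1 on the minus strand and the others on the plus strand). They are shown to make this contrast visible, with each CpG in capitals. They are not placed on any run, since the arrays use another build. The set holds the 2 starts listed for Nr3c1, the first entry of each cluster, and the clustered protocadherin with the most CpG sites.
Nr3c1, first listed start: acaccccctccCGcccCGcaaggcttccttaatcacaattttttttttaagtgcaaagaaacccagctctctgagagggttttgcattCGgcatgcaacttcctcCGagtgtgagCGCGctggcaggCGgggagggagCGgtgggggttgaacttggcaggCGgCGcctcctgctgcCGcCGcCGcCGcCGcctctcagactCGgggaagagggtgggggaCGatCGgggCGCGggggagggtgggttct
Nr3c1, second listed start: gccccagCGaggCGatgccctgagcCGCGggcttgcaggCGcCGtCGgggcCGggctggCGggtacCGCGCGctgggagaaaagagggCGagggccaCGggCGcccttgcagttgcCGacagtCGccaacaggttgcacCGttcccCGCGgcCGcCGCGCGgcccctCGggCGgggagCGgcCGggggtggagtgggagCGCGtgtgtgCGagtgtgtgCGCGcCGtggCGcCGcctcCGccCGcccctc
Pcdha4: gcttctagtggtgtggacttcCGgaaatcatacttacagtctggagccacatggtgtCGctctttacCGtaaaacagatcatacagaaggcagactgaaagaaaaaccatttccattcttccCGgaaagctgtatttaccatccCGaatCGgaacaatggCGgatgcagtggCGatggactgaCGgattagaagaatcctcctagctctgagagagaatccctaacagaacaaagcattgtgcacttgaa
Pcdhb1: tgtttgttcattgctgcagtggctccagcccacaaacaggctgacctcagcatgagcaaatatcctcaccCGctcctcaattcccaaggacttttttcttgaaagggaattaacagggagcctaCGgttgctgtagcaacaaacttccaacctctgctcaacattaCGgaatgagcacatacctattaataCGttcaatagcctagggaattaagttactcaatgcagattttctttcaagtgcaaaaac
Pcdhga1: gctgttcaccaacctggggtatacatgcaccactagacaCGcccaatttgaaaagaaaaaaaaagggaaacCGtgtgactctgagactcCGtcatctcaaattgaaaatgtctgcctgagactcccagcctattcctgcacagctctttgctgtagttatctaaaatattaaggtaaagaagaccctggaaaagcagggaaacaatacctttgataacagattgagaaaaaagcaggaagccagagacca
Pcdhgc3: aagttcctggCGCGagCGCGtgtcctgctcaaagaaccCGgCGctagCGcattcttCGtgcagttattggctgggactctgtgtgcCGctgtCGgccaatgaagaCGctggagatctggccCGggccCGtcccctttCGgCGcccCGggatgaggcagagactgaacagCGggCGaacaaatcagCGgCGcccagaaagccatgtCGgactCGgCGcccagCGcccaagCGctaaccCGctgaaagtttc
The 2 Nr3c1 promoters held 20 and 38 CpG sites in 250 bases, and their GC contents were 64.0% and 78.4%. Of all 33469 promoters of the table, 84.85% held at most 20 CpG sites and 98.57% at most 38. The Pcdha4 promoter held 9 CpG sites, that of Pcdhb1 4 and that of Pcdhga1 3, against a median of 5 over all promoters. The 35 clustered protocadherin promoters of the table ranged from 0 to 26, with a median of 4, and 34 of them had at most 10. The exception was Pcdhgc3, a member of the C type at the end of the gamma cluster, with 26.

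The quality of the arrays differed in a way that touches every comparison below. Over the probes of the window, unnormalized log2 ratios had an SD of 0.648 to 0.754 on C180, C182 and C141 and 1.00 to 1.26 on the other 5 arrays. Over the 121 tested runs of the window, those 5 arrays correlated with each other at r = 0.91 to 0.95, whereas C180, C182 and C141 reached only 0.68 to 0.79 with any array. These are correlations across runs on shared probes and are given as a description. The 3 arrays of low spread hold 2 of the Ctrl and 1 of the PNS rats, so results are also given without them. Input signals of the window's probes were well above background on 53.7% to 67.1% of spots per array, and bound signals on 32.8% to 59.6%. The bound share was 57.9% to 59.6% on C180, C182 and C141 and 32.8% to 47.1% on the other 5 arrays. Leaving out the 3 arrays of low spread thus leaves those with more dim bound spots.

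The window was denser in promoter runs than the array as a whole. The median run had 15 probes over 1167 bp, against 12 probes over 1095 bp among all runs, and 81 of the 125 runs spanned 1000 to 1300 bp. The median gap to the next run was 10577.5 bp, against 33698 bp over the array, and 68.5% of gaps were at most 30 kb, against 47.2%. Runs lay unevenly: 103 of them ended before chr18:31000000, and only 22 began after it. The gaps ranged from 538 bp to 539796 bp, and 10 of them exceeded 200 kb.

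When runs at most 30 kb apart were joined, the window fell into 40 stretches, 24 of which held a single run. The stretch with the most runs, chr18:30537393-30674008, held 20 runs and 296 probes in 136616 bp, with a median gap of 4101 bp. Of the 14664 stretches of the whole array, 32 held at least 20 runs, and the largest held 49. The next, chr18:30208867-30327646, held 13 runs and 230 probes at a median gap of 6069.5 bp. The one after it, chr18:29660504-29747642, held 8 runs at a median gap of 10566 bp.

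Across the 121 tested runs the level, averaged over the 8 arrays, had a median of -0.27, against -0.18 over the 25615 tested runs of the array. Its range was wide, from -1.16 to 2.85. Of the window's runs, 39.7% lay below the lower quartile of all runs (-0.43) and 18.2% above the upper quartile (0.13). Only 30 runs, or 24.8%, had a level above 0, against 33.6% of all runs. Levels of different runs can also differ through base composition, which the files do not give and which was not tested. Probes were 45 to 60 bases long. The mean probe length of a run correlated with the level at r = -0.39 over the 121 runs and at -0.19 over all runs. The 29 runs with a mean probe length under 52 bases had a median level of 0.34, and the 30 runs at 58 bases or more had -0.24. Over the whole array these medians were -0.09 (8663 runs) and -0.19 (5019 runs). These are descriptions of how the runs lie and not tests.

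**Figure D1:**
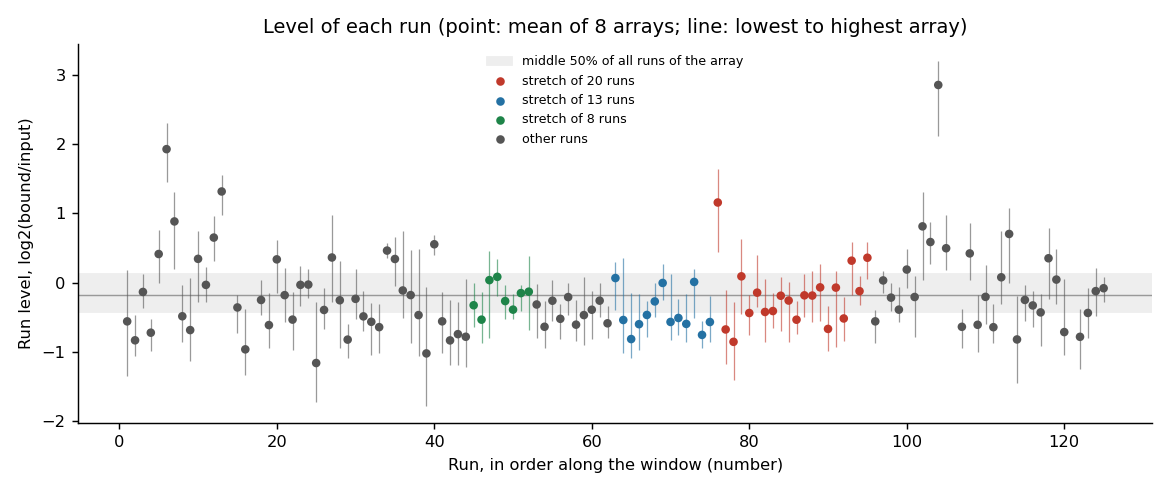
Level of each of the 121 tested runs (log2 of bound over input) against its order in the window; points are means of 8 arrays, lines reach from the lowest to the highest array, and the grey band is the middle 50% of all runs of the array (-0.43 to 0.13). Run 104 stands at 2.85 and the 20-run stretch opens with run 76 at 1.16, while most runs lie inside or below the band.

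The highest level belonged to run 104, chr18:31119041-31120212, with 17 probes and a mean of 2.85. It ranked 9 among the 25615 runs of the array. Its Ctrl values were 3.01, 2.67, 3.20 and 2.98 and its PNS values 2.11, 3.12, 2.76 and 2.97 on C141, C142, C144 and C145. C141 gave the lowest of the 8 readings, and the groups overlapped. The difference, PNS minus Ctrl, was -0.22 (SE 0.22; exact two-sided permutation p = 0.486). All of its input and bound spots were well above background, and the 5 probes at its start averaged 3.00, the middle ones 3.399 and the last 5 1.94. Run 6, chr18:28263551-28264372, averaged 1.93, with Ctrl values of 2.31, 1.56, 2.05 and 1.96 and PNS values of 1.45, 1.97, 2.04 and 2.09. Run 13, chr18:28356935-28357951, averaged 1.31, with Ctrl values of 1.32, 1.27, 1.23 and 1.48 and PNS values of 0.97, 1.55, 1.25 and 1.45. In both runs the groups overlapped through most of their range, and the lowest reading again came from C141.

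The lowest level was that of run 25, chr18:29096229-29096859, at -1.16, and only 0.207% of all runs were at or below it. Run 39, chr18:29443020-29444871, averaged -1.02 over 26 probes. The Ctrl rats gave -0.47, -0.54, -1.05 and -1.45 and the PNS rats -0.07, -1.39, -1.44 and -1.78. The 3 arrays of low spread read highest here, and the SD over the 8 arrays, 0.60, was the largest of the window's tested runs. Run 16, chr18:28423159-28423686, averaged -0.97 and belonged to a closely tiled area, chr18:28419480-28428124, where 6 runs of 63 probes followed each other at gaps of 542 to 1182 bp. The Ctrl values were -0.52, -1.15, -1.01 and -1.17 and its PNS values -0.38, -1.10, -1.06 and -1.33, again highest on C180 and C141. The 4 tested runs of that area had levels from -0.97 to -0.25.

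The 20 runs of the stretch with the most runs did not stand apart in level from the rest of the window. Their mean was -0.26, -0.16, -0.05 and -0.14 on the Ctrl arrays and -0.28, -0.19, -0.27 and -0.20 on the PNS arrays. The other 101 runs averaged -0.16, -0.17, -0.19 and -0.21 on the Ctrl arrays and -0.16, -0.27, -0.23 and -0.25 on the PNS arrays. The 20-run stretch was the higher on 5 of 8 arrays, and the mean difference of 0.01 was smaller than its SD over the arrays (0.09). Within the stretch the runs spread widely, from -0.86 in run 78 (chr18:30562743-30563621) to 1.16 in run 76 (chr18:30537393-30538351), its outermost member. Without joining across 15 kb, the stretch loses run 76 and run 77 and its mean differs from that of the other runs by -0.04.

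The 13-run stretch averaged -0.43 and was more even, with an SD between runs of 0.29 against 0.45 in the 20-run stretch. In it 9 of 13 runs lay below the lower quartile of all runs, and none above the upper quartile. The 8-run stretch averaged -0.21 with an SD of 0.21, and its runs ranged from -0.54 to 0.08. The 7 runs of chr18:30103762-30170035, a stretch described after its values were seen, all lay between -0.61 and -0.21. The 5-run stretch chr18:28233882-28281792, also picked after seeing its values, held both run 6 at 1.93 and run 4 at -0.72.

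Levels were not flat inside runs. In the 110 runs with at least 8 tested probes, the slope of the level with increasing coordinate was positive in 68 and exceeded 1 log2 unit per kb in size in 21. In 15 of those 21, all 8 arrays gave the same sign of slope. The direction of transcription was not assigned, so a slope runs along the chromosome and not along a gene.

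The steepest was run 13, at -2.20 per kb. Its slopes were -2.27, -2.11, -1.89 and -2.84 on the Ctrl arrays and -0.43, -2.43, -2.91 and -2.70 on the PNS arrays, so C141 alone was shallow. Its first 3 probes averaged 2.24 and its last 3 0.45, a descent within 1017 bp. Run 77, chr18:30543338-30544218, ran the other way at 2.02 per kb, with slopes of 2.45, 0.23, 1.81 and 2.37 on the Ctrl and 3.39, 1.30, 1.72 and 2.87 on the PNS arrays. Its first 3 probes averaged -1.08 and its last 3 0.12. Its signals were often dim, with 47.7% of input spots well above background. Run 47, chr18:29690334-29691192, had a slope of 1.68 per kb, with 1.63, 2.25, 2.09 and 1.67 on the Ctrl and 1.91, 1.11, 1.43 and 1.34 on the PNS arrays. Here the level was flat over most of the run and climbed over its last 5 probes, which averaged 0.74 against -0.36 for the first 5, and 29.7% of its input spots were well above background.

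**Figure D2:**
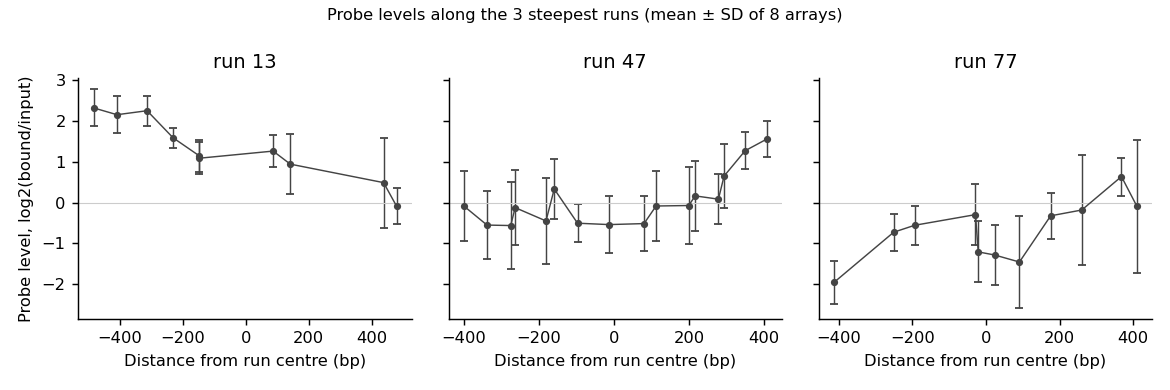
Level of each probe (log2 of bound over input; mean and SD of 8 arrays) against its distance in bp from the centre of the run, for runs 13, 47 and 77. Run 13 descends along its whole length, from 2.32 at its first probe to -0.09 at its last, run 47 climbs at its right end, and run 77 starts low at -1.96.

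The longest run and the one with the most probes was the same, run 99, chr18:30869816-30882558, with 114 probes over 12743 bp. By span it ranked 13 among all runs of the array. Its mean level was -0.39, with Ctrl values of -0.38, -0.07, -0.44 and -0.43 and PNS values of -0.21, -0.57, -0.48 and -0.55. The groups overlapped (difference -0.12, SE 0.15; exact two-sided permutation p = 0.400). Without C141 the 3 PNS arrays were all below the 4 Ctrl arrays, at a difference of -0.22 (limma adjusted p = 0.564). In that setting the groups did not overlap in 13.1% of all runs.

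Cut into 10 sections of 1274.3 bp, run 99 was not uniform. The lowest section, the fifth, averaged -0.99 over 11 probes, with -1.02, -0.76, -1.19 and -0.92 on the Ctrl and -0.97, -1.18, -0.63 and -1.26 on the PNS arrays. The eighth section, with 17 probes, averaged 0.07, and the first 0.03. The fifth section was below the eighth on each of the 8 arrays. Both sections were picked by their means over these same arrays, which share probes, so this is a description and no test. Mean probe length was 52.5 bases in the fifth section and 46.3 in the eighth, and its part in the shape was not tested. Of the 114 probes, 30 had a mean level above 0. PNS minus Ctrl was negative in all 10 sections, from -0.23 to -0.04. The section means came from the same 8 arrays and are not independent. The section with the largest difference was the eighth (Ctrl 0.05, 0.02, 0.33 and 0.35; PNS 0.01, -0.08, -0.13 and 0.04), where 1 PNS value lay above the lowest Ctrl value (exact two-sided permutation p = 0.057, before any adjustment for the 10 sections).

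**Figure D3:**
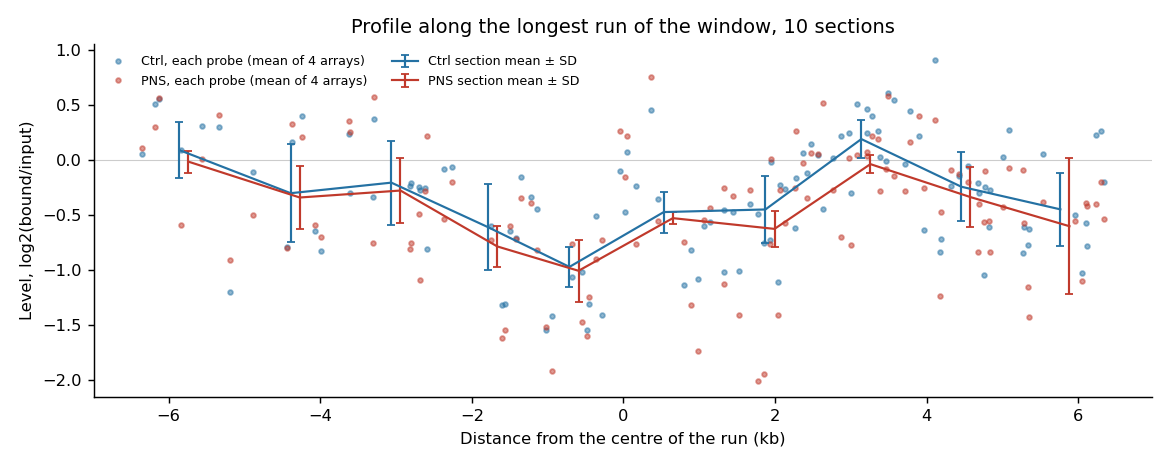
Level along run 99 (log2 of bound over input) against distance in kb from its centre; small points are probes (mean of 4 arrays), and lines join section means with the SD of 4 arrays. Both groups dip to about -1 just left of the centre and return to near 0 about 3 kb right of it.

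The question of the study was whether PNS changed methylation in the adult PFC. The paper reports probes and genes that differed there, in both directions. For the arrays the paper used a deconvolution step and a rank-sum test per promoter, adjusted over promoters. Those steps were not repeated here, so the paper's result was not tested. In the limma tests used here, on single probes and run means, no probe and no run of the window, or of the array, differed between the groups after adjustment. The smallest limma adjusted p was 0.968 among 375108 probes and 0.9997 among 25615 runs, so 0% of either passed an adjusted p of 0.2, in or out of the window. What follows are unadjusted results, given with their background.

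At the study's first-stage rule, an unadjusted p of at most 0.05 with a difference of at least 0.5, 112 of 1869 probes were called in the window (5.99%), against 4.86% of all probes. Of these 62 were lower in PNS (3.32%, against 2.25% of all probes) and 50 higher (2.68%, against 2.61%). With no minimum difference the count was again 112 (5.99%, against 4.86% of all probes), so in the window the calls rest on the unadjusted p alone. When arrays were only centred on their medians, 132 probes were called (7.06%, against 5.16% of all probes), 93 of them lower (4.98%, against 2.88%) and 39 higher (2.09%, against 2.29%). The called probes were scattered: they lay in 62 runs, 31 of those held 1 called probe, 13 held at least 3 and no run more than 5, and 16 runs held probes called in both directions. The direction of a call moved with the brightness of the input. Among the 62 probes lower in PNS, 80.6% had an input signal well above background on all 8 arrays, but among the 50 higher in PNS only 10.0% did. Over the whole array these shares were 66.6% and 16.5%, and over all probes of the window 50.5%. The part of input brightness in the calls was not tested.

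At the level of runs, 71 of 121 were lower and 50 higher in PNS. That is 58.7% lower, against 49.7% of all runs, and the median difference was -0.04, against 0.00 over all runs. With median centring 81 runs were lower (66.9%, against 55.1% of all runs), and with normexp background correction 62 were (51.2%, against 44.4%). Differences ranged from -0.62 to 0.29 with SEs of 0.12 to 0.34. Brightness moved with the direction here too. Of the 49 runs in which at least 75% of input spots were well above background, 39 were lower in PNS (median difference -0.15), and of the 38 runs with under 50%, 13 were lower (median 0.10). Over the array, 65.6% of the bright and 21.5% of the dim runs were lower.

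At an unadjusted p of at most 0.05, 4 of 121 runs were called (3.31%), against 4.03% of all runs. All 4 were lower in PNS, a direction that held 1.8% of all runs, while 2.24% of all runs were called higher and none of the window's. In 3 runs (2.48%, against 3.23% of all runs) the groups did not overlap, all 3 lower in PNS (1.4% of all runs were so, and 1.83% were so in the higher direction). That direction was not kept by every setting. With the deposited log2 values 2 runs without overlap were higher and 1 lower (2.50% together, against 3.19% of all runs). With the median over a run 2 were higher and 2 lower (3.31% together, against 3.13% of all runs). The 4 differences within slides had 1 sign in 26 runs (21.5%, against 15% of all runs), 16 of them lower and 10 higher in PNS.

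**Figure D4:**
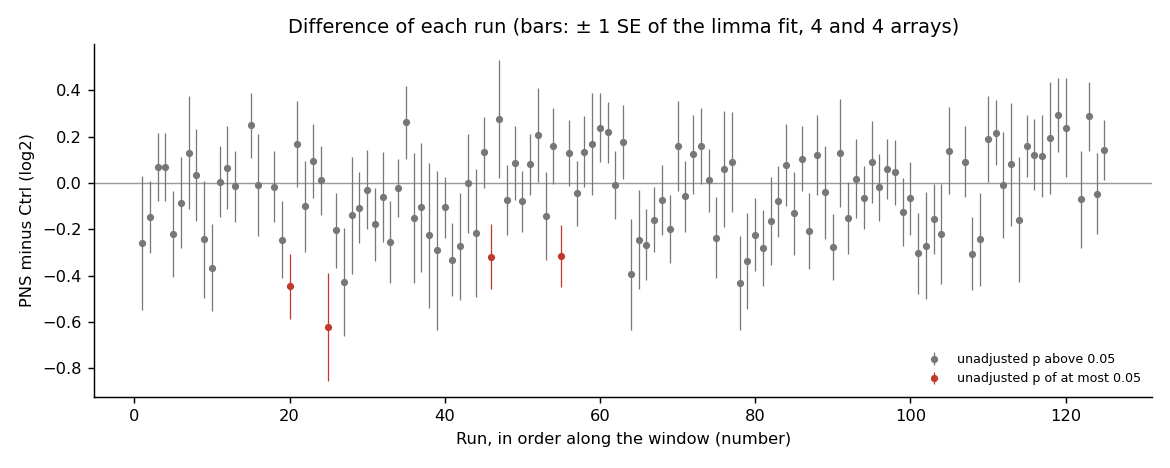
PNS minus Ctrl (log2; bars are 1 SE of the limma fit on 4 and 4 arrays) for the 121 tested runs in window order. The 4 runs with an unadjusted p of at most 0.05 are all lower in PNS, from -0.62 to -0.32, among differences that scatter on both sides of 0.

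Run 20, chr18:28483281-28484214, a lone run of 8 probes with the next run 110913 bp away, gave the clearest separation. Its Ctrl values were 0.54, 0.50, 0.57 and 0.62 and its PNS values 0.28, 0.27, -0.16 and 0.05. Every PNS rat was below every Ctrl rat, and the Ctrl rats were tightly grouped (0.56 ± 0.05, SD, n = 4) compared with the PNS rats (0.11 ± 0.21, SD, n = 4). The difference was -0.45 (SE 0.14), and the limma adjusted p over all runs was 0.9997. Within the 4 slides the difference was -0.25, -0.23, -0.73 and -0.57. The exact two-sided permutation p was 0.029, the smallest that 4 against 4 allows. Every run named because its groups did not overlap has this exact p, so it restates the choice and adds no support. All input and bound spots of run 20 were well above background. It had an unadjusted p of at most 0.05 under each of the 18 other settings tried for it, with differences from -0.64 to -0.27.

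Run 46, chr18:29682697-29683563, is a member of the 8-run stretch, with 14 probes. The Ctrl rats read -0.44, -0.14, -0.37 and -0.56 and the PNS rats -0.64, -0.68, -0.87 and -0.59. The PNS rats were all lower, but C145 was only 0.03 below its slide's Ctrl rat, C185. The difference was -0.32 (SE 0.14; exact two-sided permutation p = 0.029; limma adjusted p = 0.9997), and -0.20, -0.55, -0.50 and -0.03 within slides. This call was weak: 6 of 18 other settings kept an unadjusted p of at most 0.05, and with the slide as a block it was 0.061.

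Run 55, chr18:30010012-30011176, a lone run of 15 probes, had Ctrl values of -0.18, -0.17, 0.04 and -0.11 and PNS values of -0.22, -0.55, -0.52 and -0.39. The groups did not overlap, but C141 came within 0.05 of its slide's Ctrl rat. The difference was -0.32 (SE 0.13; exact two-sided permutation p = 0.029; limma adjusted p = 0.9997), and -0.05, -0.38, -0.56 and -0.28 within slides. Its probes ranged in level from -1.55 to 1.22, and 3 of its 15 probes were called lower. With the slide as a block its unadjusted limma p was 0.056, and 11 of 18 other settings kept it at or below 0.05.

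Run 25, the lowest of the window in level, was named for that level. It was also the remaining one of the 4 runs called without adjustment, and the only one of them whose groups overlapped. Its Ctrl values were -0.64, -0.28, -1.20 and -1.29 and its PNS values -1.09, -1.46, -1.73 and -1.61. C180 and C182, both of low spread, lay far above the other Ctrl rats, and C141 lay above 2 of the Ctrl rats, so the groups overlapped. The difference was -0.62 (SE 0.23; exact two-sided permutation p = 0.086; limma adjusted p = 0.9997), and -0.45, -1.18, -0.53 and -0.32 within slides. Without C180, C182 and C141 it was -0.39 (SE 0.14; limma adjusted p = 0.225) and the remaining groups did not overlap. With so few arrays that was common: 33.1% of the window's runs and 33.8% of all runs did not overlap there. With the slide as a block the unadjusted limma p of run 25 was 0.0056 (limma adjusted p = 0.875). Of 18 other settings, 12 kept an unadjusted p of at most 0.05 and 6 lost it.

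**Figure D5:**
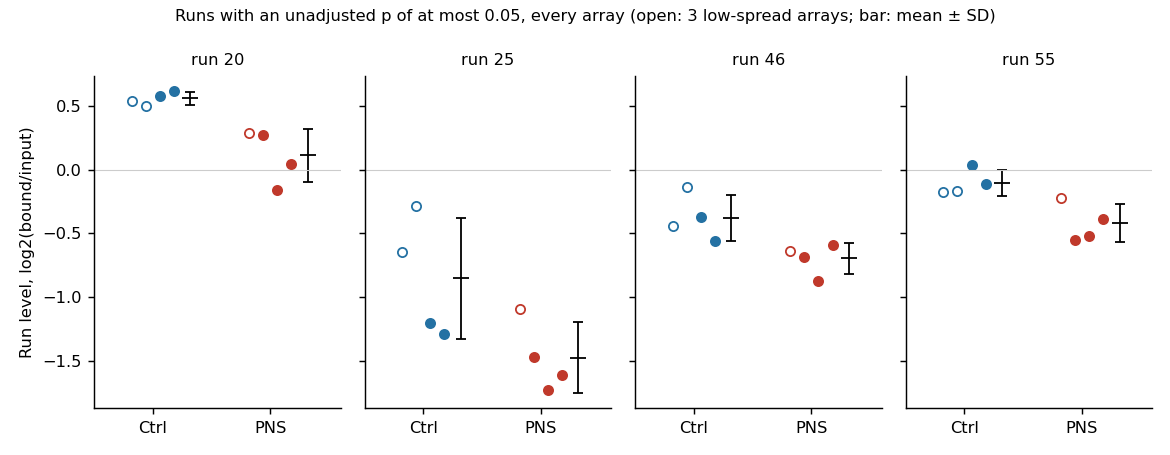
Level (log2 of bound over input) of runs 20, 25, 46 and 55 on every array; open points are the 3 arrays of low spread, and bars are the mean and SD of 4 arrays. In runs 20, 46 and 55 all PNS points lie below all Ctrl points, and in run 25 the PNS rat C141 lies above C184 and C185.

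Single arrays moved these counts. Without C141, 13 of 121 runs were called (10.74%, against 11% of all runs), 11 of them lower in PNS, and they included all 4 runs above. Without C180, C182 and C141, 15 runs were called (12.4%, against 15.8% of all runs), 14 of them lower and 3 shared with the 4. In that comparison of 2 Ctrl with 3 PNS rats, 6 runs of the window had a limma adjusted p under 0.2 (4.96%, against 5.78% of all runs). The leading one was run 27, chr18:29165944-29166697, at -0.81 (SE 0.13, limma adjusted p = 0.078), a run named after its values were seen, and runs 20 and 55 were among the 6 with adjusted p of 0.143 and 0.144. Shares of the window thus stayed close to those of the whole array in both cases. With the slide as a block, 5 runs were called (4.13%, against 5.26% of all runs).

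In the 3 stretches with the most runs the differences were small and mixed. In the 20-run stretch 12 runs were lower and 8 higher, with a median of -0.07 and a range of -0.43 to 0.13. In the 13-run stretch 8 were lower and 5 higher, with a median of -0.07. In the 8-run stretch 3 were lower and 5 higher, with a median of 0.08, and run 46 was the single call in all 3. Of the 11 stretches with at least 4 tested runs, 3 were lower in PNS in every run, a pattern seen after the values were known. The largest of these, chr18:29435032-29501386, had 7 of 7 runs lower, from -0.33 to 0.00, none with an unadjusted p of at most 0.05. The others held 4 and 5 runs. Over the window 58.7% of runs were lower, and no matching share over the array's stretches is given, so the count has no background. Neighbouring runs share arrays and are not independent.

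Of the called probes whose groups did not overlap, the 6 with the largest differences are given here. Groups of 4 that do not overlap always give an exact two-sided permutation p of 0.029. For these probes that p restates the choice and adds no support. Probe A_45_P11489891, chr18:31225663-31225707 in run 109, had Ctrl values of 0.39, 0.10, 0.04 and -0.60 and PNS values of -1.12, -2.48, -1.81 and -1.26. All PNS rats were lower, by 1.65 on average (SE 0.36; exact two-sided permutation p = 0.029; limma adjusted p = 0.968). Its bound signal was well above background on all 4 Ctrl arrays but only 1 PNS array, so the PNS level is set largely by signals near background. The next probe of the run differed by -1.02 and the previous one by 0.32. The whole run differed by -0.24.

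Probe A_45_P11487769, chr18:30877935-30877986, lies in the seventh section of run 99. On the Ctrl arrays it read -0.17, 0.00, -1.30 and -0.51 and on the PNS arrays -1.72, -2.65, -2.00 and -1.67. No PNS array had a bound signal of this probe well above background, and only 3 of the 4 Ctrl arrays did. With the PNS signals set to the lowest that counted as well above background, it was 1.18-fold lower in PNS. The Ctrl mean kept all measured values, also the one not well above background, so 1.18 is not a firm lower limit. The next probe differed by -1.20 and the previous one by 0.13. Probe A_45_P11493414, chr18:31934380-31934428, differed by -1.43, with a bound signal above background on 1 PNS array. Probes A_45_P26144157, chr18:30659322-30659381 in the 20-run stretch, and A_45_P11475345, chr18:28180420-28180469, differed by -1.40 and -1.32, each with 2 PNS arrays above background. For all 5 of these probes the whole runs differed by -0.24 to -0.12.

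The single higher probe of this group, A_45_P11498610, chr18:32755800-32755859, had no array with input or bound signal well above background. The Ctrl arrays read -1.98, -1.31, -0.63 and -0.66 and the PNS arrays -0.30, 0.21, 0.39 and 0.37. The groups did not overlap, but with both channels at background no fold is given for it. Its neighbours differed by 0.45 and -0.48.

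Between rats, the window varied about as much as the rest of the array. The SD of a run's level over the 8 arrays had a median of 0.24 in the window and 0.25 over all runs, and ranged from 0.07 to 0.60. The most even run was run 34, chr18:29331886-29333117, described after its values were seen, with a level of 0.46. The levels of the 121 runs had an SD of 0.57 between runs. In run 39 the SD over the arrays, 0.60, was above that.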

How the data were processed

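Genomic DNA of the PFC of 4 Ctrl and 4 PNS rats was hybridised by the authors as bound (Cy5) against input (Cy3) DNA on Agilent tiling arrays, which per the study's methods cover promoters. The deposited scanner files hold the intensity of each spot in both channels, background-subtracted and dye-corrected by Feature Extraction 10.7.3.1 for build rn4, with a log10 ratio and quality flags. The deposited value table holds log2 ratios. Set against the scanner values, it was bound over input from median signals, quantile-normalized, with array medians of -0.54 to -0.53.

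Here log2(bound/input) of the processed intensity signals was taken. Left out were 5503 control spots and 405 spots that 1 or more arrays flagged as saturated or uneven, none of which lay in the window. Spots of a probe were averaged, and 375108 probes were quantile-normalized. Groups were compared with limma 3.58.1 (R 4.3.3), without a block, on probes and on the mean of each run with at least 3 tested probes, with Benjamini-Hochberg adjustment over the whole array. Single runs and probes were also given exact permutation tests over the 70 assignments. These assignments ignored the slides, so the pairing of a Ctrl and a PNS array on each slide was not used in them. Fewer assignments keep to the slides, and no exact p was computed that way. Arrays were grouped by their GEO labels. Depth does not apply to arrays, and their number limits the precision. The rank-sum and deconvolution steps of the study's own analysis were not repeated.

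The text names runs whose groups did not overlap (up to 6), the 3 highest, 3 lowest and 3 steepest runs, the longest run and that with the most probes, the 3 stretches with the most runs, and 6 called probes whose groups did not overlap. Members and lists were chosen with earlier results of these data known. Alternatives were another ratio, normalization, background or brightness filter, the slide as a block, left-out arrays, other run definitions and, added after seeing the data, the deposited log2 values. No rn4 annotation was used here.

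Slides hold 1 array of each group. Same-slide deviations from the group means correlated at -0.12 to 0.20 (mean 0.11, against -0.03 between slides). The correlation was thus higher within slides on average but not positive on every slide. The main fit did not use the slide.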

Additional observations from a re-analysis of the deposited data

Results flagged for a closer look

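In 44 groups of 4 arrays, the highest or lowest array was set against the other 3, and 4 stood apart by Dixon's criterion, where chance gives about 1 in 20. C182 read -0.0685 in run 99, chr18:30869816-30882558, while the other Ctrl arrays read -0.44 to -0.38. C182 also read 0.37 at probe A_45_P11475345, above the other Ctrl arrays at -0.16 to -0.15. C141 stood apart from the other PNS arrays in its mean correlation with the other 7 arrays over the window's runs, 0.695 against 0.832 to 0.854. The SD of its log2 ratios over the window's probes before normalization was 0.648, against 1.22 to 1.26.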

How the results depend on the processing

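The number of called probes (112) was 58 of 943 without dim input spots (6.15%, against 4.09% over the array), 10 with normexp background correction (0.535%, against 0.630%), 57 with a minimum difference of 1 (3.05%, against 2.34%) and 209 without C180, C182 and C141 (11.2%, against 10.1%). Leaving out 1 array each gave 76 without C144 (4.07%, against 3.43%) to 222 without C141 (11.9%, against 9.20%). The number of called runs (4) was 7 without dim spots (6.48%, against 2.54%), 9 with the median over a run (7.44%, against 4.34%), 9 with the deposited log2 values (7.50%, against 4.71%) and 15 without the 3 arrays, and ranged from 1 (without C144, and without C145) to 13 (without C141) with 1 array left out. It was 7 without C180, 5 without C182 and 3 without either C184 or C185. Runs whose groups did not overlap (3) numbered 7 without dim spots (6.48%, against 2.74%) and 40 without the 3 arrays (33.1%, against 33.8%, 32 of them lower in PNS). With 1 array left out they numbered from 3 without C144 (2.48%, against 4.32%) to 12 without C141 (9.92%, against 13.1%). The cause of these moves was not tested, beyond that fewer probes or arrays enter where they are left out. The split of called runs by direction was 3 higher and 6 lower with the median over a run and with the deposited values. Blocking on the slide (replicate block) called 153 probes (8.19%, against 6.14%) and 5 runs (4.13%, against 5.26%), 2 of those runs shared with the 4. The 20-run stretch differed from the other runs by -0.04 to 0.07 under every setting tried. Arrays were paired only through the slide, since the labels give no replicate numbers. Among the 12 named runs, run 20 kept its call in every refit, runs 25, 46 and 55 lost theirs in 25 of their 54 refits, and run 39 gained one without C141. Dim signals limit the lowest levels: bound signals were well above background on all 8 arrays for 30.8% of the window's probes.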
